A study of Mus musculus with 21 samples.

Results

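Proliferation genes encode the machinery that copies DNA and divides cells, and their mRNA is used as a readout of cycling cells in a tissue. The 10 genes described here were chosen by symbol from the 48474 rows of the deposited count table. Of these, 6 act mainly in mitosis and its preparation (Mki67, Top2a, Cdk1, Ccnb1, Ccna2 and Birc5) and 4 in DNA replication (Mcm5, Mcm6, Pcna and Rrm2). All 10 had a row with counts, and 8 passed the filter on low counts.

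The libraries came from the neocortex of 21 mice aged 17 to 19 weeks, 10 rNLS8 and 11 wild-type. The rNLS8 mice carried NEFH-tTA together with the TDP-43ΔNLS transgene, a human TDP-43 without its nuclear localisation signal. Its driver, the NEFH promoter of the neurofilament heavy chain gene, is active in neurons and, outside them, only in a few oligodendrocytes. The wild-type group were monogenic littermates, which lack the combination needed to express it. A single injection into the ventricle, of 10 µl with 350 µg of an antisense oligonucleotide without a target, was given to mice of both genotypes. Doxycycline in the chow at 200 mg/kg kept the transgene off until 2 weeks after that injection, and it was then on for 3 weeks. The mice fell into 2 sets by the form of their library names, called cohorts here. Cohort A held 3 rNLS8 and 4 wild-type mice and cohort B held 7 of each. Sex is not given in the sources used here.

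In a dividing cell, the MCM2-7 helicase is loaded on origins and unwinds DNA in S phase, PCNA clamps the polymerase to its template and RRM2 supplies the ribonucleotide reductase subunit that makes deoxynucleotides. CDK1 with cyclin A and then cyclin B drives entry into mitosis, TOP2A untangles the sister chromatids, BIRC5 (survivin) works in the chromosomal passenger complex and MKI67 (Ki-67) coats mitotic chromosomes. In the adult cortex most neurons have left the cell cycle, and the cells that still divide are mainly oligodendrocyte precursors and, when activated, microglia. Several replication proteins, PCNA among them, also serve DNA repair in cells that do not divide.

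The promoters of cell cycle genes are known for 2 kinds of control elements, E2F sites at genes of the start of S phase and the cell cycle genes homology region (CHR), often with CCAAT boxes, at genes of mitosis. The 250 bases before the start site are shown for the 3 members whose mRNA was higher in rNLS8 mice and for the MCM subunits among the members, Mcm5 and Mcm6. They are RefSeq sequences of build GRCm38.p6, read 5′ to 3′ on the strand of the gene, with exact letter matches in capitals. On both strands, the letters TTTGAA and the variant TTCGAA were searched for CHR, and CCAAT for the CCAAT box. For E2F the search used TTCCCGC, the form TTGGCGC, the form TTCGCGC and the form TTGCCGC.
Mki67, chr7:135716380-135716629, minus strand: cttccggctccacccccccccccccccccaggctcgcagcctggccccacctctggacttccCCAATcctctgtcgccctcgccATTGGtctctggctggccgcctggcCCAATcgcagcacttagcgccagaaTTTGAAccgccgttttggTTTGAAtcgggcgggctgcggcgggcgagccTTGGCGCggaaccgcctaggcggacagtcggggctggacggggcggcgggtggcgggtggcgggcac
Top2a, chr11:99024190-99024439, minus strand: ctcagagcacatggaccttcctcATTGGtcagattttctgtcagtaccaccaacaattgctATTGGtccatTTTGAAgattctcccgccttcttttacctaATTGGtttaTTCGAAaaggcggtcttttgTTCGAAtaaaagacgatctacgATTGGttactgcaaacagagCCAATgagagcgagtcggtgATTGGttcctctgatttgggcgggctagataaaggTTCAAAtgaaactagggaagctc
Cdk1, chr10:69352913-69353162, minus strand: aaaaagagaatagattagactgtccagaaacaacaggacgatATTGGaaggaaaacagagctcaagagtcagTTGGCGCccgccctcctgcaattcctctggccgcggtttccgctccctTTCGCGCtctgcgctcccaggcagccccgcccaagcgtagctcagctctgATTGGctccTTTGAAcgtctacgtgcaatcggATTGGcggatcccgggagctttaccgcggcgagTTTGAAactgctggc
Mcm5, chr8:75109259-75109508, plus strand: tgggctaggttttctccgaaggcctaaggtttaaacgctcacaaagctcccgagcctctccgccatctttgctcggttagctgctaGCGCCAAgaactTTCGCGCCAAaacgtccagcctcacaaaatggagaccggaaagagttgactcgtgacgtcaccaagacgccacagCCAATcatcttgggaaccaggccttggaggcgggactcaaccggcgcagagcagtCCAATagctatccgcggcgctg
Mcm6, chr1:128359706-128359955, minus strand: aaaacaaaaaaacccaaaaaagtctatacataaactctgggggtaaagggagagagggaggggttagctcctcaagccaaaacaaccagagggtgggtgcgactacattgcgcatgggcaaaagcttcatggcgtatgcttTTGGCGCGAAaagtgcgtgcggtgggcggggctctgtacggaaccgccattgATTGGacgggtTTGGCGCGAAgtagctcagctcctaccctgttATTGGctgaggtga

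RefSeq held a promoter entry for 9 of the 10 members, Ccna2 being the one without. CHR letters stood in 3 of the 9 windows, those of Mki67, Top2a and Cdk1, against 17.1% of 32851 promoter windows of the same length. CCAAT stood in 8 of 9, against 33.8% of all windows, and Birc5 was the exception. E2F letters stood in 6 of 9, against 7.89% of all windows. The windows of Mcm5 and Mcm6 held 3 and 4 E2F matches, some of which overlap each other. In Ccnb1 a CCAAT match overlaps an E2F match. CHR and CCAAT letters together stood in 6.02% of all windows. These matches describe letters only and are neither bound sites nor causes.

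**Figure D1:**
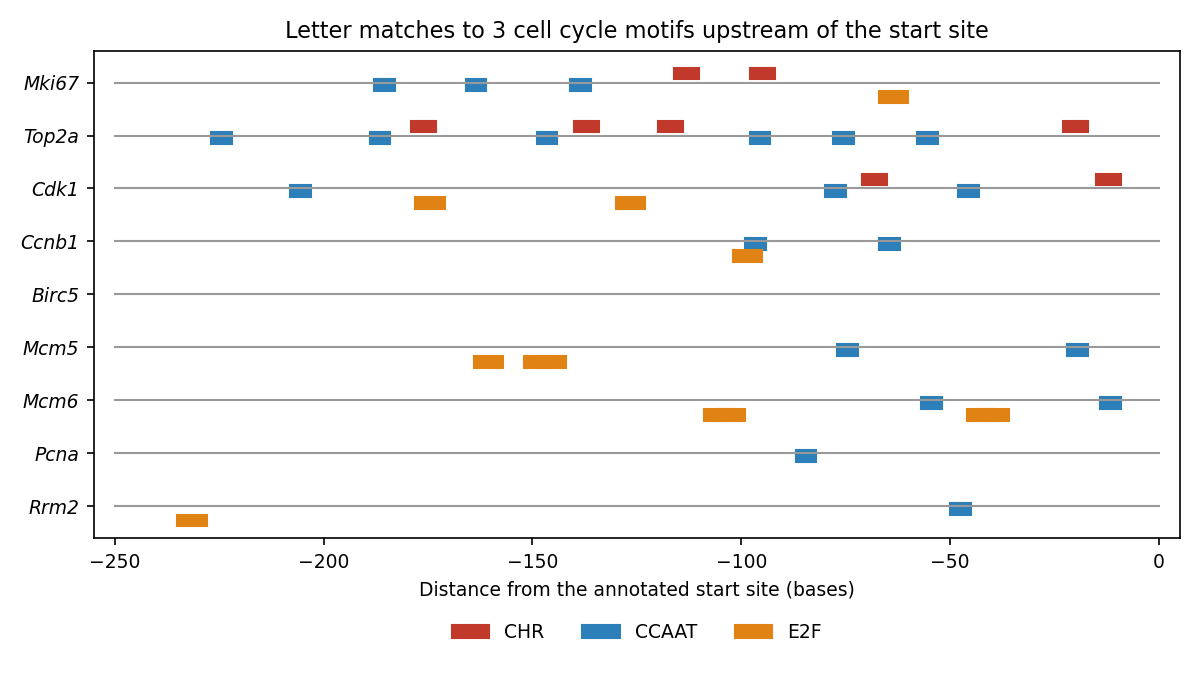
Positions of exact letter matches to CHR, CCAAT and E2F in the 250 bases before the annotated start site of 9 members, with distance from the start site in bases on the horizontal axis. Red CHR blocks stand only in the rows of Mki67, Top2a and Cdk1, and Birc5 holds no match to any of the 3 motifs.

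Depth was even, with 20700912 to 22263809 counts per mouse, so that 3 counts corresponded to 0.135 to 0.145 CPM (counts relative to the library total). Levels below are normalized counts, the count of a gene in a mouse divided by the library size adjusted by edgeR's TMM factor and scaled to the mean library. Across the table, 19052 genes were tested, and the markers Cux2, Rorb, Fezf2 and Tbr1 of the neocortex layers were all detected. Of the rNLS8 mice, numbers 8 and 9 of cohort A had the highest summed levels of 12 microglia markers (837 and 686 CPM, against 500 to 627 in the other 8 rNLS8 mice). Mouse 9 lay much closer to the others than mouse 8 did. Results are also given without mice 8 and 9.

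The members spanned a wide range of levels. In wild-type mice, normalized counts per kilobase of exon were 315 ± 19.3 (SD, n = 11) for Pcna, 29.1 ± 4.57 for Mcm6 and 29.0 ± 3.64 for Mcm5. Rrm2 followed at 10.9 ± 2.36 and Ccna2 at 7.58 ± 2.24. The other 5 mitosis genes were the lowest, with Birc5 at 2.99 ± 1.36, Top2a at 2.32 ± 0.701, Mki67 at 1.95 ± 0.947, Ccnb1 at 1.14 ± 0.52 and Cdk1 at 0.86 ± 0.478. Mcm5 and Mcm6 did not differ beyond their spread, nor did neighbours among the 5 lowest. By their means, the replication genes thus stood above the mitosis genes, Pcna far above all, though Rrm2 and Ccna2 overlapped within their spread.

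Mki67 and Top2a were upregulated in rNLS8 mice, while Mcm5 and Pcna were downregulated. This makes 2 members higher and 2 lower among the 8 tested (edgeR quasi-likelihood test, cohort as covariate, adjusted p under 0.05). Over all genes tested, 43.6% passed that threshold, 22.4% higher and 21.2% lower, so a share of 4 in 8 lies close to the background. Scaled by library size alone, 68% rather than 51.3% of all calls were higher. Without rNLS8 mice 8 and 9, 2 members were again higher and 2 lower. For none of the members were the mice of both genotypes fully separated, which was the case for 7.39% of all genes tested. In bulk tissue, a change in the number of cells of a type and a change in RNA per cell cannot be told apart, and this holds for every value below.

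**Figure D2:**
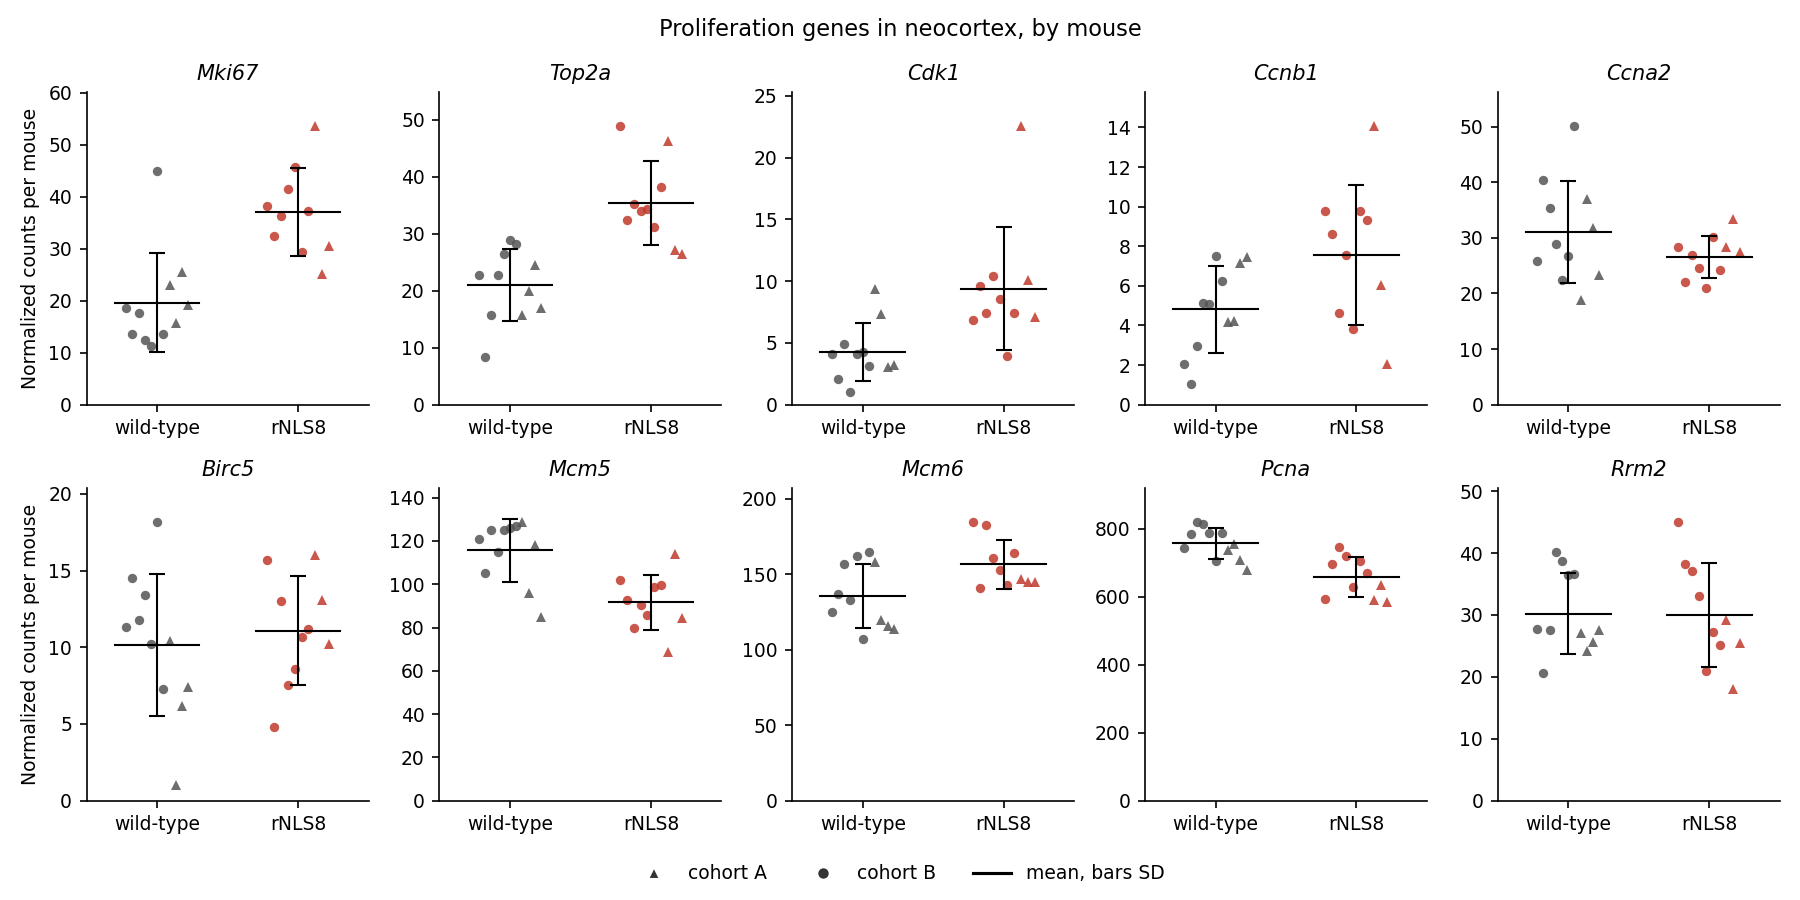
Normalized counts of each member in each mouse, wild-type in grey and rNLS8 in red, triangles for cohort A and circles for cohort B, with the mean as a line and the SD as bars. Top2a shows 8 of 10 rNLS8 points above the whole wild-type range, Pcna shows 6 of 10 below every wild-type mouse, and Birc5 and Rrm2 overlap over nearly their whole range.

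Mki67 (ENSMUSG00000031004.8, chr7:135689784-135716361, minus strand, GRCm38) encodes Ki-67, a protein of cycling cells that is lost in quiescence. Raw counts were 11, 18 and 42 in wild-type mice (lowest, median and highest) and 25, 39 and 57 in rNLS8 mice. The lowest rNLS8 mouse lay above 9 of 11 wild-type mice, and the 2 that overlapped were wild-type mouse 6 (cohort B), at 45.0 normalized counts, and wild-type mouse 10 (cohort A), at 25.6 against 25.2 in the lowest rNLS8 mouse. Means were 19.6 ± 9.53 and 37.0 ± 8.44 normalized counts (SD, n = 11 and 10). The fold was 1.9 with a 95% interval of 1.42 to 2.54 (log2 fold change 0.93, SE 0.20, edgeR adjusted p = 0.000599). Without wild-type mouse 6 the log2 fold change was 1.15 (adjusted p = 3.37e-06), and without rNLS8 mice 8 and 9 it was 0.90 (adjusted p = 0.00175).

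Top2a (ENSMUSG00000020914.17, chr11:98992943-99024189, minus strand) encodes topoisomerase IIα, which untangles DNA before chromosomes part. Its counts were 8, 22 and 27 in wild-type and 26, 36 and 50 in rNLS8 mice, and 8 of 10 rNLS8 mice had a normalized count above every wild-type mouse. The 2 exceptions were rNLS8 mice 9 and 10, both of cohort A. Means rose from 20.9 ± 6.32 to 35.5 ± 7.33 normalized counts, a fold of 1.68 with a 95% interval of 1.33 to 2.13 (log2 fold change 0.75, SE 0.17, edgeR adjusted p = 0.000689). It came to 0.68 with rNLS8 mice 8 and 9 left out (adjusted p = 0.00342). A small nucleolar RNA gene, Gm23451, covers 1.35% of the exon bases of Top2a on the same strand.

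Cdk1 and Ccnb1, the kinase and the cyclin that together start mitosis, were too sparse for the filter on low counts, so their values come from an edgeR fit to all rows with a count, in which 22.8% of 35145 genes passed the threshold and 12.7% were higher. Cdk1 (ENSMUSG00000019942.13, chr10:69335146-69352938, minus strand) had 1, 4 and 9 counts in wild-type and 4, 8.5 and 24 in rNLS8 mice. Groups overlapped, 4 rNLS8 mice being above the highest wild-type mouse. The means were 4.24 ± 2.36 and 9.40 ± 5.02 normalized counts, and the fold of 2.29 had a 95% interval of 1.54 to 3.41 (log2 fold change 1.20, SE 0.28, adjusted p = 0.00149). DESeq2 gave a log2 fold change of 1.20 (adjusted p = 0.00179), where 34.9% of genes passed. The value of rNLS8 mouse 8, at 22.6 normalized counts, was far above the next at 10.4. Without this mouse the log2 fold change was 0.97 (adjusted p = 0.0117), and without mice 8 and 9 it was 0.98 (adjusted p = 0.0203).

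Ccnb1 (ENSMUSG00000041431.16, chr13:100778650-100786570, minus strand), the gene of cyclin B1, had 1, 5 and 7 counts in wild-type and 2, 8.5 and 15 in rNLS8 mice. Although 6 rNLS8 mice lay above every wild-type mouse, rNLS8 mouse 10 was at 2 counts. The log2 fold change of 0.68 (95% interval 0.05 to 1.30, SE 0.31) did not pass the threshold (edgeR adjusted p = 0.122), nor did it with DESeq2 (adjusted p = 0.127). Without rNLS8 mouse 10 it passed (0.83, adjusted p = 0.0358), and without rNLS8 mouse 8 it was 0.48 (adjusted p = 0.331). A pseudogene row, Ccnb1-ps, held 2 counts in all wild-type mice together and 6 in all rNLS8 mice. How reads shared by these near-identical copies were counted is not given in the sources used here, so the level of Ccnb1 is uncertain.

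Ccna2 (ENSMUSG00000027715.9, chr3:36564865-36572150, minus strand), the gene of cyclin A2, which acts from S phase to the start of mitosis, did not rise as Mki67 and Top2a did. Its counts were 18, 28 and 48 in wild-type and 22, 28 and 33 in rNLS8 mice, the rNLS8 range lying inside that of wild-type. The log2 fold change was -0.22 (SE 0.15, edgeR adjusted p = 0.258), with a 95% interval from -0.53 to 0.09. Exosc9, on the opposite strand, shares 12.5% of the exon bases of Ccna2, and the use of strand in counting is not given in the sources used here, so part of these counts may belong to Exosc9.

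Birc5 (ENSMUSG00000017716.15, chr11:117849251-117855743, plus strand), the gene of survivin, had 1, 10 and 17 counts in wild-type and 5, 11.5 and 17 in rNLS8 mice. The ranges overlapped almost fully, and the fitted log2 fold change was 0.12 (SE 0.26, edgeR adjusted p = 0.736), with a 95% interval from -0.41 to 0.66. It was -0.12 without rNLS8 mice 8 and 9 (adjusted p = 0.759). In cohort A the log2 fold change was 1.08 (adjusted p = 0.186) and in cohort B it was -0.28 (adjusted p = 0.405). The single count of wild-type mouse 9 belongs to cohort A. The difference between cohorts, tested as an interaction, was 1.32 (SE 0.52, unadjusted p = 0.0172) and did not pass after adjustment over all genes (adjusted p = 0.848).

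Of the 4 replication genes, Mcm5 and Pcna were lower, and Mcm6 and Rrm2 did not pass. Mcm5 (ENSMUSG00000005410.6, chr8:75109569-75128439, plus strand), a subunit of the MCM2-7 helicase, had 80, 117 and 128 counts in wild-type and 73, 96.5 and 113 in rNLS8 mice. Normalized counts of 8 of 11 wild-type mice lay above every rNLS8 mouse, and 3 rNLS8 mice lay below every wild-type mouse. The mean went from 116 ± 14.5 to 91.7 ± 12.7, a fold of 0.788 with a 95% interval of 0.696 to 0.893 (log2 fold change -0.34, SE 0.087, edgeR adjusted p = 0.0025). Scaled by library size alone the log2 fold change was -0.27 (edgeR adjusted p = 0.0128).

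Mcm6 (ENSMUSG00000026355.11, chr1:128331590-128359664, minus strand), another subunit of the same ring, had 100, 129 and 160 counts in wild-type and 142, 158 and 197 in rNLS8 mice. Every rNLS8 mouse was above the wild-type median, yet only 2 were above every wild-type mouse. The log2 fold change was 0.20 (SE 0.082, 95% interval 0.03 to 0.37) and just missed the threshold (edgeR adjusted p = 0.0529). It passed under several other settings, for instance when scaled by library size only (0.28, adjusted p = 0.00823), so its side of the threshold was not settled by these mice.

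Pcna (ENSMUSG00000027342.14, chr2:132249162-132253314, minus strand), the sliding clamp of DNA polymerases, was the most abundant member, with 638, 721 and 837 counts in wild-type and 573, 688 and 804 in rNLS8 mice. In normalized counts, 6 rNLS8 mice fell short of every wild-type mouse and 6 wild-type mice above every rNLS8 mouse. Means were 756 ± 46.3 and 656 ± 58.7, a fold of 0.862 with a 95% interval of 0.81 to 0.917 (log2 fold change -0.21, SE 0.043, edgeR adjusted p = 0.000282). The change was small, on the highest counts of all members. Scaled by library size alone it was -0.14 (edgeR adjusted p = 0.0141). The pseudogene row Pcna-ps2 moved the same way (log2 fold change -0.29, SE 0.11, adjusted p = 0.0359). Reads of these near-identical copies may have been split, so the level of Pcna is uncertain. The pseudogene row held 62.5 ± 9.11 normalized counts in wild-type mice.

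Rrm2 (ENSMUSG00000020649.11, chr12:24708241-24714146, plus strand), the small subunit of ribonucleotide reductase that is made in S phase, had 20, 27 and 39 counts in wild-type and 18, 29.5 and 46 in rNLS8 mice. Both extremes lay in rNLS8 mice, with mouse 1 above and mouse 9 below every wild-type mouse. The log2 fold change was -0.04 (SE 0.14, edgeR adjusted p = 0.865), and the 95% interval from -0.33 to 0.26 bounds a change in the mean in either direction.

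**Figure D3:**
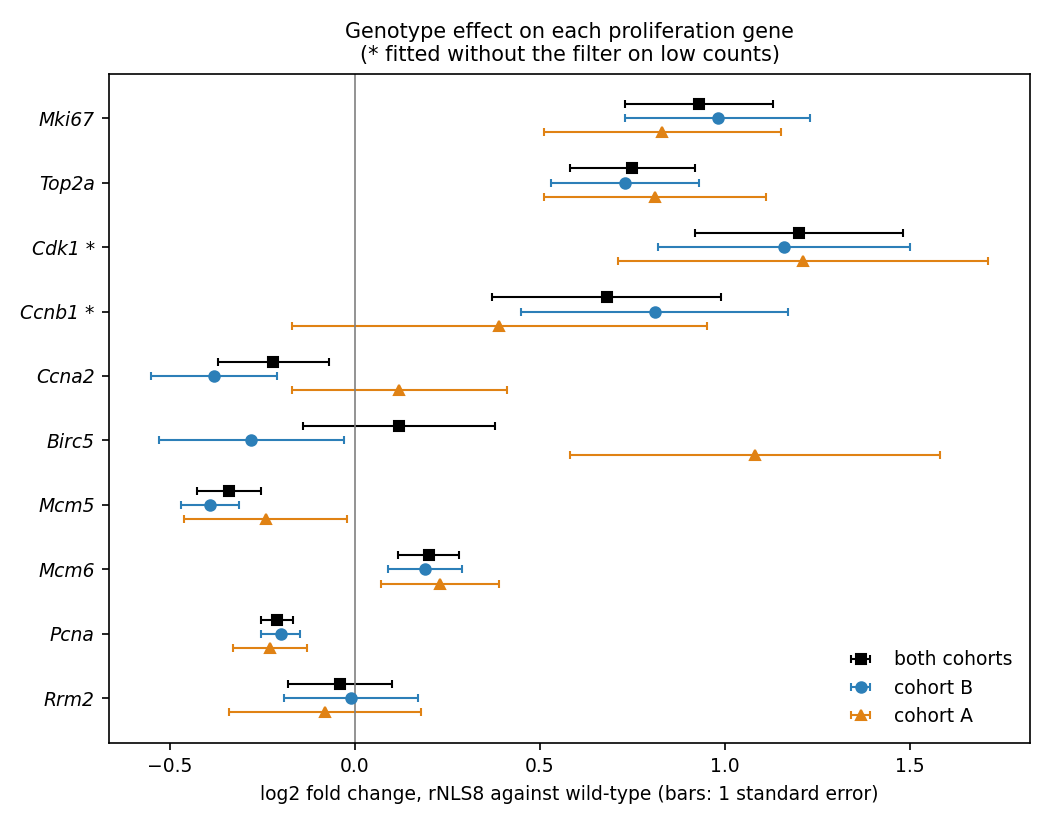
Log2 fold change of each member in rNLS8 against wild-type mice, fitted by edgeR over both cohorts (black squares), cohort B (blue circles) and cohort A (orange triangles), with bars of 1 standard error, and with Cdk1 and Ccnb1 from the fit without the filter on low counts. Mki67, Top2a and Cdk1 lie to the right of 0 in each cohort, Mcm5 and Pcna to the left, and the cohorts stand on opposite sides for Birc5 and Ccna2.

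The comparison was repeated within each cohort. In cohort B, the same 4 members passed (Mki67 0.98, adjusted p = 0.00447, Top2a 0.73, adjusted p = 0.00771, Mcm5 -0.39, adjusted p = 0.000659, and Pcna -0.20, adjusted p = 0.00485, by edgeR), where 39.1% of genes tested did. In cohort A, with 3 rNLS8 and 4 wild-type mice and 11.8% of genes past the threshold, none of the 8 tested members passed by edgeR, and 3 had an unadjusted p under 0.05. Their log2 fold changes there were 0.83 for Mki67 (adjusted p = 0.118), 0.81 for Top2a (adjusted p = 0.108), -0.24 for Mcm5 (adjusted p = 0.525) and -0.23 for Pcna (adjusted p = 0.164). Cdk1 was at 1.16 in cohort B (adjusted p = 0.0141) and at 1.21 in cohort A (adjusted p = 0.154). The interaction of genotype and cohort passed for 0 of 19537 genes by edgeR and 1 by DESeq2, while 5.6% of genes had an unadjusted p under 0.05.

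Between the cohorts themselves, with genotype as covariate, 22.6% of genes passed and 1 member of 8 did. Pcna was lower in cohort A by a log2 difference of -0.14 (SE 0.046, edgeR adjusted p = 0.0341), with 720 ± 34.0 normalized counts in wild-type mice of cohort A (n = 4) and 777 ± 40.1 in those of cohort B (n = 7). This call was lost by upper quartile scaling (-0.11, edgeR adjusted p = 0.0915), without the filter (-0.14, 0.0713) and without rNLS8 mice 8 and 9 (-0.14, 0.0966). It was also lost without each of 6 mice in turn. With single mice left out, the difference stayed between -0.15 and -0.13. Xist, which is made from the inactive X chromosome of females, had 1512 to 16985 counts in all 7 mice of cohort A and at most 12 counts in 10 of the 14 mice of cohort B, so sex ran with cohort, and its part in the difference between cohorts was not tested. In cohort B, Xist exceeded 12 counts in wild-type mice 3, 4 and 5 and in rNLS8 mouse 5. Sex was thus uneven between genotypes as well. With Xist as covariate, the genotype effect by edgeR was -0.22 for Pcna (adjusted p = 0.000571) and -0.36 for Mcm5 (adjusted p = 0.00266). It was 0.91 for Mki67 (adjusted p = 0.000973) and 0.76 for Top2a (adjusted p = 0.00106). Between cohorts, Rrm2 differed by -0.36 (SE 0.15) and did not pass (edgeR adjusted p = 0.0968). The wild-type ranges of Rrm2 were 24.2 to 27.6 normalized counts in cohort A and 20.7 to 40.2 in cohort B.

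Single mice held the extremes of several members. Among rNLS8 mice, mouse 8 had the highest level of Mki67, Cdk1, Ccnb1 and Birc5, and the lowest of Mcm5. Mouse 1 had the highest level of Top2a, Mcm6 and Rrm2. Among wild-type mice, mouse 6 had the highest level of Mki67, Top2a, Ccnb1 and Birc5 and the lowest of Mcm6. Across all 21 mice, with the means of genotype and cohort taken out, Pearson's r between the 28 pairs of the 8 tested members ran from -0.46 (Mki67 and Pcna) to 0.63 (Top2a and Rrm2), with a median of 0.01, and between the 6 pairs of mitosis genes the median was -0.05. These coefficients describe sparse counts from libraries of like depth.

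The genes whose residual pattern was most like the mean of the tested mitosis members were Gm52385 (r = 0.80 over 21 mice), Gm34686, LOC115488151, Ccdc66 and Zfp560 (r = 0.73). None of these 5 passed the test between genotypes. For the replication members they were Srprb (r = 0.79), Srpr, Agfg2, Ccnk and Fam110a (r = 0.78). Of the latter, Ccnk was higher in rNLS8 mice (log2 fold change 0.36, edgeR adjusted p = 1.22e-05), as was Agfg2 (0.19, adjusted p = 0.00816). They are the extremes of all genes tested, on few counts in part, and are given as a description.

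Mcm5 and Mcm6 were compared with the other subunits of the MCM2-7 ring. Mcm7 rose the most, with a normalized count of 182 to 258 in wild-type and 373 to 475 in rNLS8 mice and no overlap between genotypes. The means of Mcm7 were 219 ± 27.8 and 404 ± 33.0 (log2 fold change 0.88, SE 0.068, edgeR adjusted p = 2.30e-10), and it passed in each cohort alone. Mcm3 (0.41, adjusted p = 0.00309) and Mcm2 (0.38, adjusted p = 0.00164) rose as well. Mcm4 was at 198 ± 25.3 and 195 ± 19.5 normalized counts (log2 fold change -0.04, adjusted p = 0.72). Of the ring's 6 genes, 3 were thus higher, 1 was lower, which was Mcm5, and Mcm4 and Mcm6 did not pass, where 43.6% of all genes tested passed, 22.4% higher and 21.2% lower.

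**Figure D4:**
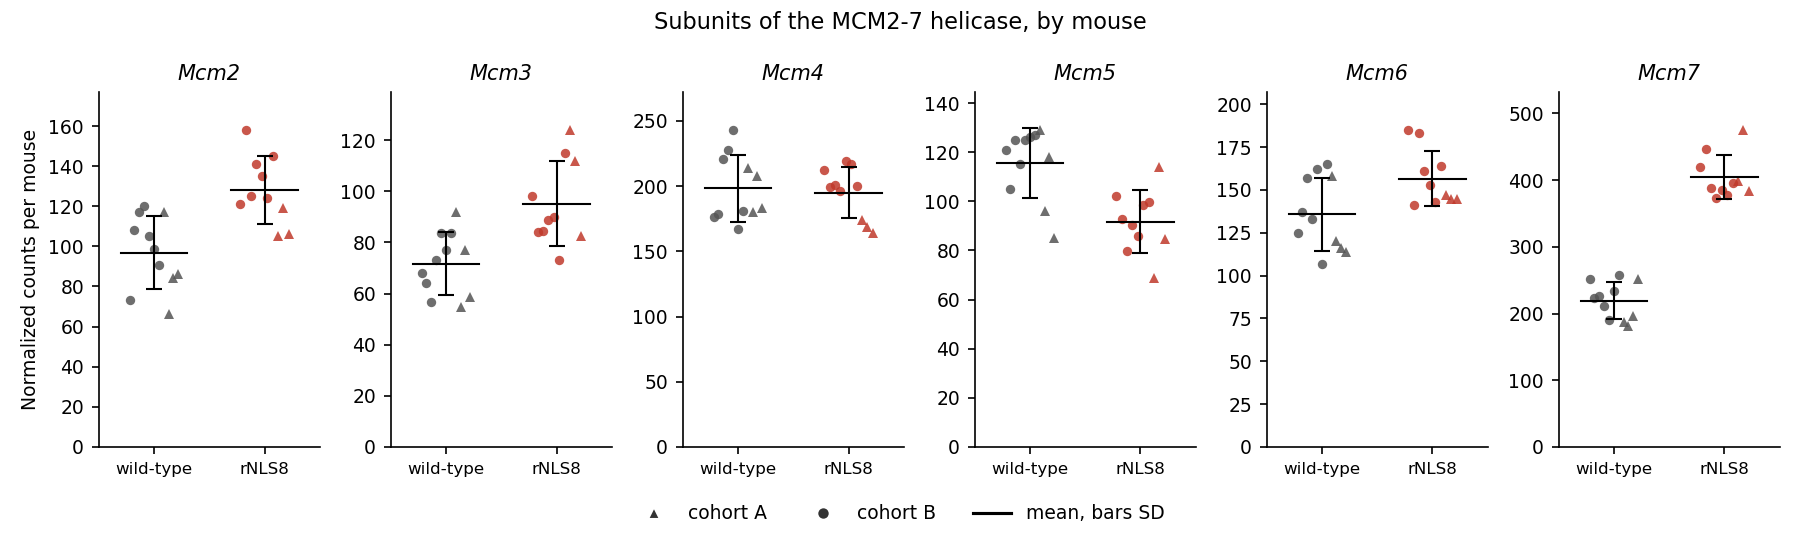
Normalized counts of the 6 MCM2-7 helicase subunits in each mouse, wild-type in grey and rNLS8 in red, triangles for cohort A and circles for cohort B, with mean and SD. The rNLS8 mice lie above all wild-type mice for Mcm7, at 373 or more, and 8 of 11 wild-type mice lie above all rNLS8 mice for Mcm5.

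The members stand in a wider set of 131 cell cycle genes in 8 lists. Of these, 117 were tested, 31 were higher in rNLS8 mice and 12 lower, with a median log2 fold change of 0.10, where 22.4% of all genes were higher, 21.2% lower and the median was -0.00. By library size alone the median of all genes shifted to 0.08. Without rNLS8 mice 8 and 9, 43 genes passed rather than 44, a 5-gene list of dividing microglia included. The list of chromosome condensation, spindle and cytokinesis had 9 of 31 tested genes higher and 2 lower, and its median was 0.25. Besides Mki67 and Top2a, Bub1b, a kinase of the spindle checkpoint, rose from 21.8 ± 6.31 to 44.8 ± 12.7 normalized counts (log2 fold change 1.03, SE 0.18, edgeR adjusted p = 6.67e-05). Nusap1, which bundles spindle microtubules, rose on few counts (0.74, adjusted p = 0.0295). Incenp, a partner of BIRC5 in the chromosomal passenger complex, fell (-0.39, adjusted p = 3.84e-05), as did Racgap1 (-0.15, adjusted p = 0.0452), which acts in cytokinesis and passed neither by library size alone nor in either cohort alone.

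The counts of each list below stand beside 22.4% of all genes tested that were higher and 21.2% that were lower. The share of higher genes lies near the former in the lists below other than origin licensing and firing. Of the 12 tested genes of the MCM helicase and its partners 3 were higher and 1 lower, and of 9 in origin licensing and firing 4 were higher and none lower by edgeR or DESeq2, with 1 lower at an unadjusted p under 0.05. The higher ones were Dbf4 (0.56, adjusted p = 0.00636) and Cdc7 (0.44, adjusted p = 0.014), which form the kinase that fires origins, with Orc5 (0.32, adjusted p = 9.79e-06) and Orc2 (0.23, adjusted p = 4.91e-05) of the origin recognition complex. Dbf4 did not pass without rNLS8 mice 8 and 9 (0.39, adjusted p = 0.054). At the replication fork, where Pcna belongs, 5 of 21 were higher and 4 lower. Rfc5, a subunit of the loader that places PCNA on DNA, fell the most, from 141 ± 11.8 to 80.7 ± 11.3 normalized counts with no overlap between genotypes (-0.81, SE 0.073, adjusted p = 3.05e-09). Its partner Rfc2 fell as well (-0.18, adjusted p = 0.0013), and so did Dnmt1 (-0.16, adjusted p = 0.00517), though by library size alone neither passed. Chaf1b, of the chromatin assembly factor that PCNA recruits, rose from 8.30 ± 2.13 to 15.3 ± 5.33 normalized counts (0.88, adjusted p = 0.00067). Pola2 (0.36), Uhrf1 (0.57) and Pold1 (0.26) rose too, Pold1 not without rNLS8 mice 8 and 9 (0.20, adjusted p = 0.0647).

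In deoxynucleotide supply, the list of Rrm2, 2 of 8 were higher and 1 lower. Samhd1, which breaks deoxynucleotides down, rose from 285 ± 26.7 to 377 ± 28.9 normalized counts with no overlap (0.40, edgeR adjusted p = 3.90e-06). Dut, which removes dUTP, also rose (0.25, adjusted p = 0.000123), and Dck, a salvage kinase, fell from 500 ± 38.5 to 364 ± 53.2 with no overlap (-0.47, adjusted p = 6.10e-07).

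Among cyclins, cyclin-dependent kinases and their phosphatases, the list of Cdk1, Ccnb1 and Ccna2, 3 of 12 tested genes were higher and 1 lower. Ccne2 (0.53, edgeR adjusted p = 1.32e-05) and Cdc25a (0.44, adjusted p = 4.64e-05), both of the entry into S phase, and Cdk4 (0.25, adjusted p = 9.21e-05) rose. Ccnd1, the G1 cyclin that partners CDK4, fell from 1170 ± 129 to 862 ± 92.2 normalized counts (-0.42, adjusted p = 2.42e-06). Of 9 inhibitors and pocket proteins 2 rose and 2 fell. Cdkn1a, which encodes the inhibitor p21 that also binds PCNA, rose from 390 ± 84.8 to 724 ± 256 normalized counts (0.90, adjusted p = 1.85e-08), its highest value of 1226 being in rNLS8 mouse 9. Rbl2 was slightly higher (0.14, adjusted p = 0.00675), and Cdkn2d (-0.28, adjusted p = 0.000133) and Cdkn1b (-0.17, adjusted p = 0.0115) were lower, Cdkn1b not by library size alone (-0.09, adjusted p = 0.208). Of 15 cell cycle transcription factors 3 were higher (Tfdp1 0.35, E2f6 0.33 and Lin52 0.22) and 1 lower, Tfdp2 (-0.19, adjusted p = 0.00239), which did not pass by library size alone (-0.12, adjusted p = 0.0615).

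**Figure D5:**
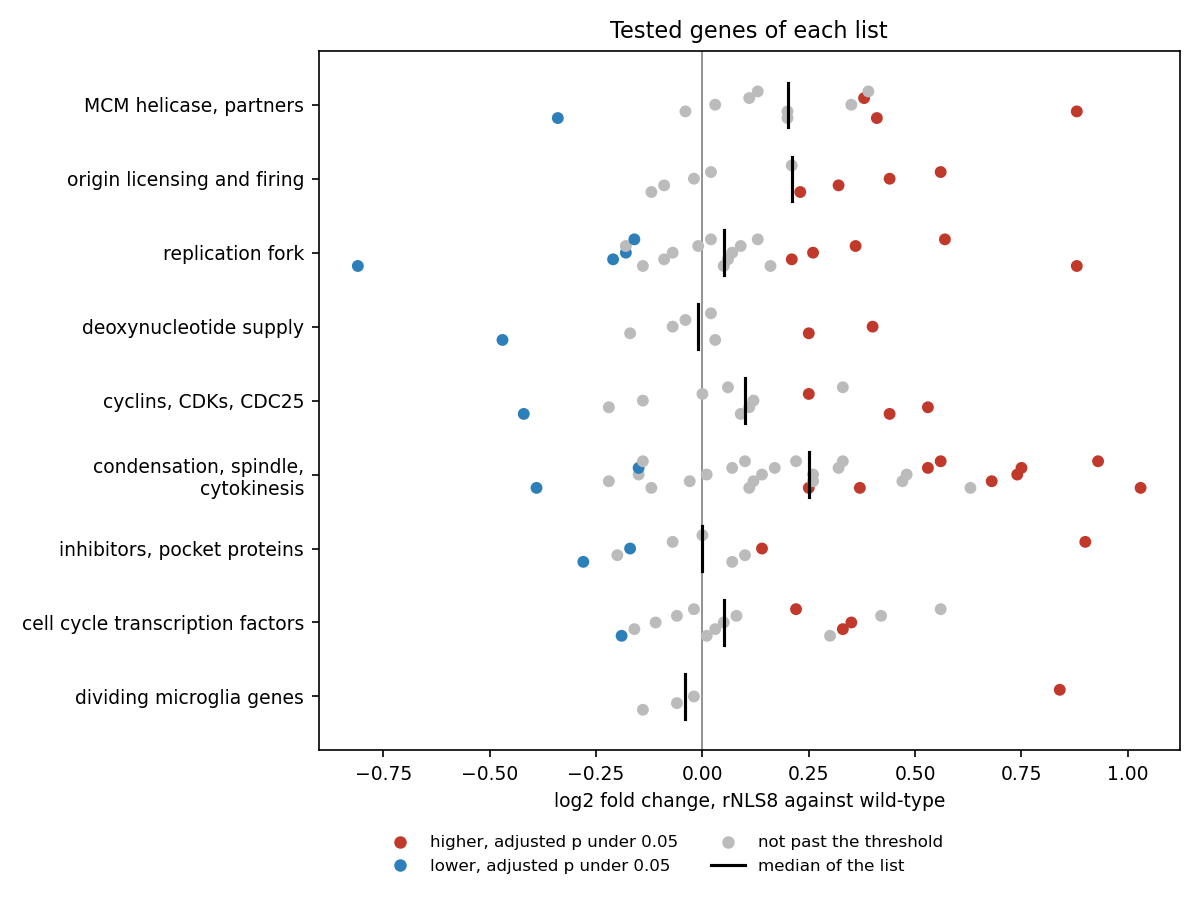
Log2 fold change in rNLS8 against wild-type mice of every tested gene in 8 cell cycle lists and a list of dividing microglia genes, red for higher and blue for lower at an edgeR adjusted p under 0.05, grey for the rest, with the median of each list as a black bar. The median is 0.25 for the list that holds Mki67 and Top2a and 0.05 for the replication fork, where genes lie on both sides of 0.

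Markers of cells that could hold the members moved with some of these results. Over all genes tested, 22.4% were higher and 21.2% lower, beside which the marker counts here and in the next paragraph stand. Of 12 microglia markers 9 were higher and 1, P2ry12, was lower (-0.35, edgeR adjusted p = 2.51e-05). Their summed level was 441 to 514 CPM in wild-type and 500 to 837 CPM in rNLS8 mice, and 9 of 10 rNLS8 sums were above the wild-type range. The highest sum was that of rNLS8 mouse 8, which among rNLS8 mice was also highest for Mki67, Cdk1, Ccnb1 and Birc5. The second highest, 686 CPM, was that of rNLS8 mouse 9, which had the lowest Mki67 and Rrm2 of the rNLS8 mice. The lowest sum of the rNLS8 mice, 500 CPM, was that of mouse 1, which had the highest Top2a, Mcm6 and Rrm2 among them. Wild-type mouse 6, with the highest Mki67 of its group, had a sum of 460 CPM. The part of microglia in the levels of Mki67, Top2a and Cdk1 was not tested. Of the 5 genes that the study named for dividing microglia of another mouse line, Ly86 was higher (0.84, adjusted p = 9.04e-09), Atad2 (-0.14, adjusted p = 0.148), Diaph3 (-0.06, adjusted p = 0.728) and Lrmda (-0.02, adjusted p = 0.959) did not pass, and Rad51b, with 45 and 49 counts in all, was too low to be tested.

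Of 7 markers of oligodendrocyte precursors, the other dividing cells of the cortex, none passed by edgeR or DESeq2, nor at an unadjusted p under 0.05, and their summed level was 244 to 322 CPM in wild-type and 257 to 295 CPM in rNLS8 mice. None of 6 markers of border macrophages passed by either tool (2 at an unadjusted p under 0.05), and none of 6 of neuroblasts did (0 at an unadjusted p under 0.05). Of 8 T cell markers 1 had enough counts to be tested, Cd4, which was lower (174 and 81.4 normalized counts, -1.24, adjusted p = 0.00347). Cd3e, Cd3g and Cd3d averaged at most 1.15 normalized counts in either genotype, and Trac 5.51 in wild-type and 6.50 in rNLS8 mice. Cd8a averaged 0.472 and 1.72, Cd8b1 0.189 and 0.589, and Cd2 1.22 and 1.81. Of these untested markers, Cd3e alone had the lower mean in rNLS8 mice. Cd4 alone thus gives no direction for T cells. No B cell marker had enough counts to be tested. Of 7 astrocyte markers, Gfap was higher (1.03, adjusted p = 4.97e-08) and 4 were lower. Of 6 markers of newly formed oligodendrocytes 2 were higher, Gpr17 (0.22, adjusted p = 0.0062) and Bmp4 (0.34, adjusted p = 0.018). The part of these cells in the members' levels was not tested. Of 8 neuron markers 6 were lower, while Rbfox3 (-0.10, edgeR adjusted p = 0.188) and Slc17a7 (0.05, adjusted p = 0.575) did not pass. The summed level of the 8, 8939 to 10930 CPM in wild-type and 6687 to 8143 CPM in rNLS8 mice, did not overlap between genotypes. Mcm5 and Pcna moved in the same direction as the 6 neuron markers and the 4 astrocyte markers that were lower. The part of neurons and astrocytes in the levels of Mcm5 and Pcna was not tested.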

How the data were processed

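Libraries were made with a BGI in-house mRNA kit from neocortex RNA and sequenced paired-end at 100 bases. The authors deposited raw counts per gene in 1 table for all 21 mice. Per the submitters' processing notes, reads were aligned to mm10 (GRCm38). HISAT, HISAT2, Bowtie, Bowtie2 and RSEM are named there without a role, and the counting program and its use of strand are not given in the sources used here. Rows of further copies of a gene (2536) held 4.11% of counts.

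Counts were tested as deposited with edgeR 4.0.16 in R 4.3.3 (TMM, quasi-likelihood F-test, genotype with cohort as covariate, filter of at least 10 counts by edgeR's rule), adjusted by Benjamini-Hochberg over all 19052 genes tested, at 0.05. Intervals are 95%. The same model gave the cohort term, and a second one the interaction. DESeq2 1.42.0, other scalings, filters, cohorts alone, Xist as a covariate for sex and each mouse left out were alternatives. Scripts were tested on simulated data.

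Genotypes came from the labels, and cohorts A and B differ in the form of the library names. Mice are numbered within a genotype in accession order, as a name only. P-values measure the spread between mice. The members and lists were chosen with earlier results of these data known. Named genes were the members, up to 4 higher and 4 lower called genes per list with the largest change, Cdkn1a, the dividing microglia genes and the 5 genes most like each set of members. Also named were Mcm4, single cell type markers, Xist, and genes or pseudogenes that overlap or copy members. Exon lengths and positions came from GENCODE M21.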

Additional observations from a re-analysis of the deposited data

Results flagged for a closer look

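Cdk1 in rNLS8 mouse 8 of cohort A lay far from the other rNLS8 mice. Its normalized count of 22.6, against 10.4 in the next mouse, left a gap of 0.654 of the whole range of the 10 rNLS8 mice, above the limit of Dixon's test for 10 values. Of 10 such groups, 1 for each member, this was the 1 flagged, where chance gives about 0.5. The same mouse had the highest summed microglia markers of all mice, 837 CPM, and the part of these cells in its Cdk1 level was not tested.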

How the results depend on the processing

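The calls of Mki67, Top2a, Mcm5 and Pcna and their directions held in every alternative that tested them, except in cohort A alone, where 0 members were higher, 0 were lower, and 2195 genes over the table and 14 genes of the cell cycle and dividing microglia lists passed, on fewer mice. Mcm6 passed when scaled by library size only (0.28, adjusted p = 0.00823) or by upper quartile (0.20, adjusted p = 0.0441), with at least 10 counts in every mouse (adjusted p = 0.0453), without rows of further copies (adjusted p = 0.0495), and without 1 of 6 mice in turn, and the cause was not tested. Leaving out each mouse in turn, 2 to 3 members were higher and 2 lower, 7908 to 8514 genes passed between genotypes and 3429 to 4850 between cohorts, and 0 to 1 passed the interaction, as did 1 by DESeq2. Without rNLS8 mice 8 and 9, 2367 genes passed between cohorts, where 4315 did with all mice. Among the 6 mice whose omission ended the call of Pcna between cohorts, the adjusted p reached 0.0782. The fits of Cdk1 and Ccnb1 without single mice or within a cohort, and the fit with reads of the pseudogene rows added to Pcna and Ccnb1, were chosen after seeing the data. With these reads added, Pcna kept its call (adjusted p = 0.000215).

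No paired analysis was possible because mouse numbers are shared by no mice of different groups in the labels. Depth limits Cdk1 and Ccnb1, at 24 and 15 counts or fewer per mouse, and to a lesser extent Birc5, Mki67, Top2a, Ccna2 and Rrm2.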
